A study of Saccharomyces cerevisiae with 14 samples.

Results

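Of the 6040 open reading frames (ORFs) in the table, 5652 had 3 or more values at every time point, and 81 of these (1.43%) were lower in the artemisinic acid producer EPY330 than in EPY338 at 24, 48 and 72 h of induction. These 81 members were chosen by their own ratios: the log2 ratio of EPY330 over EPY338, averaged over the slides of a time point, had to be -0.6 or less at each of the 3 time points. The ratios are therefore given below as a description, with no test between the strains. The same rule with the sign turned took 206 ORFs that were higher in EPY330. One further ORF had means at or below the limit but too few values to be counted.

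The study compared a budding yeast that makes artemisinic acid, the precursor of the antimalarial drug artemisinin, with a near-identical yeast that stops one enzyme short of it. EPY330 carries a high-copy pESC-Leu2d plasmid with amorphadiene synthase (ADS), amorphadiene oxidase (AMO, a plant cytochrome P450) and its reductase (CPR). EPY338 carries the same plasmid with AMO inactivated by a cysteine to glycine change, and makes amorphadiene but not the acid. Both strains derive from BY4742 (MATα his3Δ1 leu2Δ0 lys2Δ0 ura3Δ0) through the same parent, with LYS2 and URA3 repaired: galactose promoters drive 2 copies of truncated HMG-CoA reductase, upc2-1 and ERG20 in both, and the ERG9 promoter is replaced by the MET3 promoter. Both strains were grown in rich galactose medium (YPG). The paper's general cultivation method gives this medium some glucose and added methionine, and its microarray method names YPG only. For each time point, RNA of 5 transformants per strain was pooled in equal amounts. The pools were labelled with Alexa555 for EPY330 and Alexa647 for EPY338, and hybridised to 4 slides at 24 h and 5 slides each at 48 and 72 h. All slides of a time point thus repeat one pair of pools in one dye orientation, and the SD between slides given below is technical. The 3 time points come from the same transformants, dye and strain cannot be told apart, and the AMO mutation cannot be checked on these slides. The cultures are bulk samples in which cells that have lost the plasmid are not separated from the rest, so a lower transcript level per cell and a smaller share of cells with that transcript cannot be told apart, and a low ratio can equally come from a higher level in EPY338.

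The members do not form one pathway. As background, a yeast cell that makes a foreign product spends amino acids, redox cofactors, membrane and protein-folding capacity on it, and the genes most often followed in such strains are those of stress response, membrane lipids, metal use and amino acid supply. Genes of all these kinds occur among the members, beside many of chromosome maintenance, RNA processing, translation and the secretory pathway. The kinds are broad, and nothing is read from their occurrence. EPY338 also carries the plant genes and makes amorphadiene, so the ratios do not measure the cost of a foreign product as such. Grouped by known role, a grouping made after the members were known, there were 10 genes of DNA and chromosomes, 9 metabolic enzymes, 8 genes of the secretory pathway, 7 each of transcription and chromatin, RNA processing and decay, and translation, 6 each of mitochondria and peroxisomes and of transport, redox and metals, 5 of cell polarity, cell wall and mating, 4 of protein turnover and folding, and 12 to which no role is assigned here. The class medians of the mean log2 ratio lay between -0.82 for the secretory pathway and -1.03 for both protein turnover and the genes with no role assigned, a narrow range.

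Over the 3 time points, weighted equally, the members' mean log2 ratio ran between -1.66 and -0.62 with a median of -0.93, which is a level 1.90-fold lower in EPY330 (1.53-fold to 3.16-fold). At 24 h their median was -0.96. It was -0.998 at 48 h, and the 72 h slides gave -0.72, beside medians of all tested ORFs within 0.03 of 0. The mean was below -1 for 33 members at 24 h, 40 at 48 h and 13 at 72 h, and for 3 at every time point. Those 3 were MLG1, TMA64 and ADA2. The SD between slides had a median over the members of 0.32 at 24 h, 0.48 at 48 h and 0.32 at 72 h. Of the members, 76 were below 0 on every slide that had a value. ECM11, ATP5, MUP1 and TYS1 were above 0 on 1 slide each, and ILT1 was above 0 on 2.

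**Figure D1:**
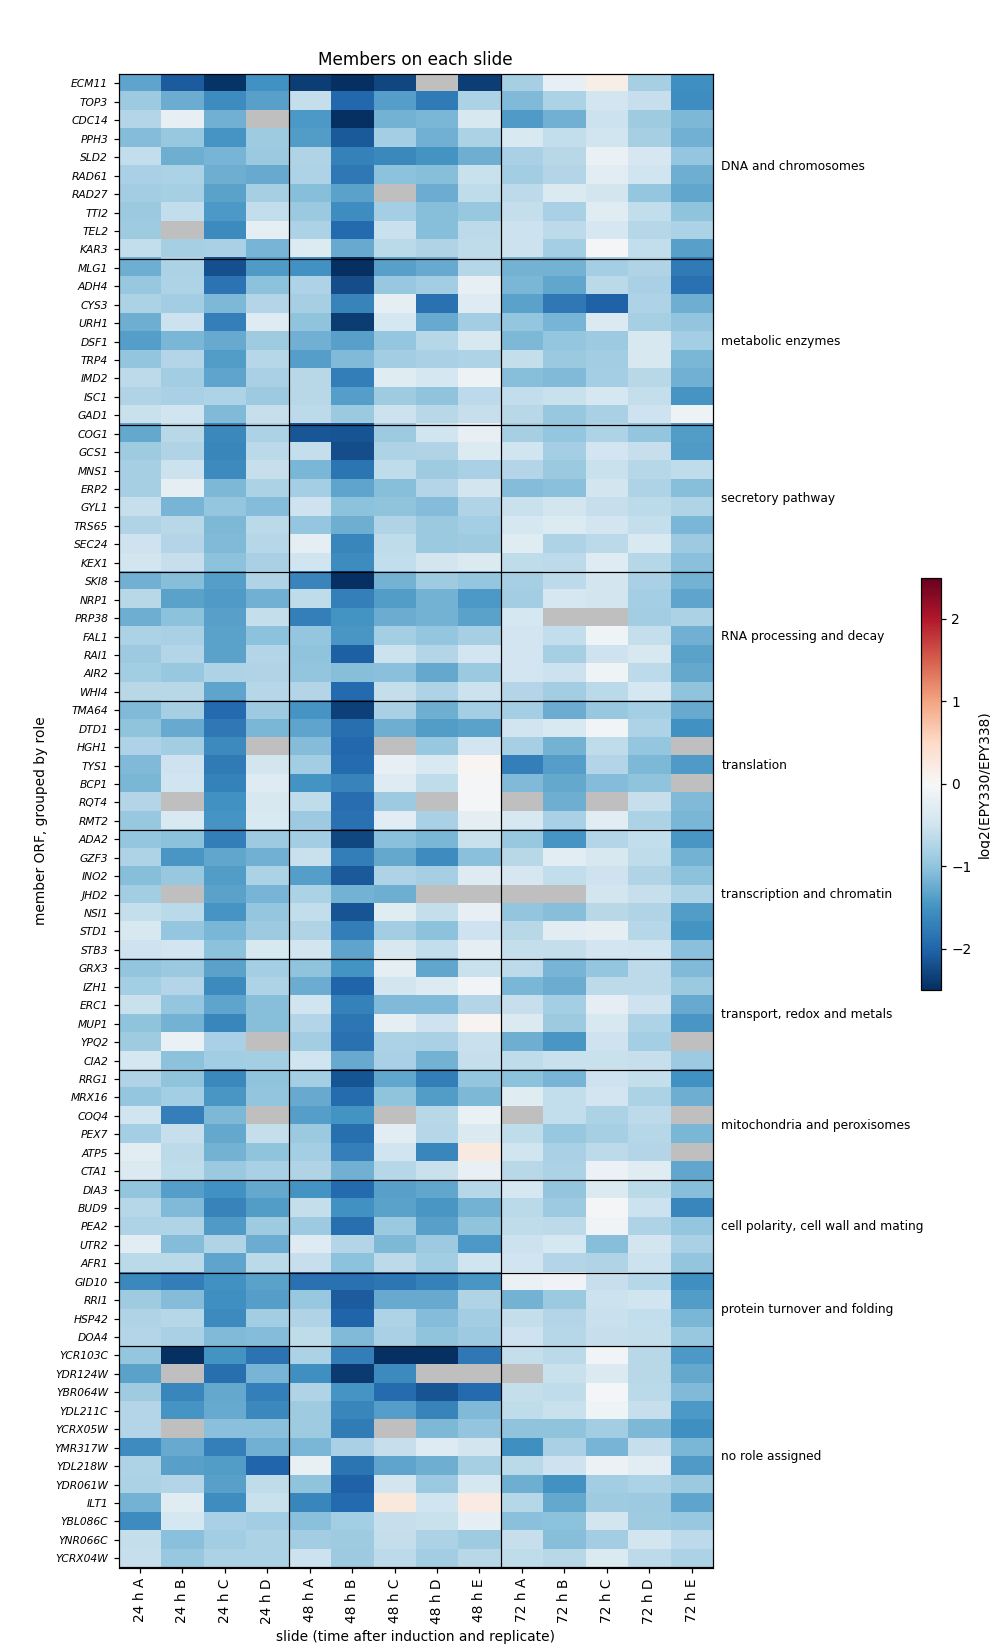
Log2(EPY330/EPY338) of the 81 members (rows, grouped by role and sorted within a role by their mean) on the 14 slides (columns). Blue is lower in EPY330, red is higher and grey has no value, with colours ending at -2.5 and 2.5; columns 24 h C, 48 h B and 72 h E are the darkest of their time points.

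The size of the ratios rested in part on 3 slides. The median over the members was -1.35 on 24 h C, against -0.83, -0.84 and -0.88 on 24 h A, B and D. On 48 h B it was -1.73, against -0.87, -0.85, -1.001 and -0.65 on 48 h A, C, D and E. On 72 h E it was -1.18, against -0.66, -0.81, -0.51 and -0.67 on 72 h A, B, C and D. These slides also had the widest spread over all tested ORFs at their time point, with SDs of 0.71, 0.88 and 0.61. With these 3 slides left out, a choice made after seeing the values, all 81 members had means below 0 at every time point, with a median of -0.80. The remaining slides had also chosen the members, so this is no independent check. Under the rule applied to the 11 other slides, however, 30 ORFs qualified, of which 29 were members (35.8% of the 81). They were led by MLG1, CYS3, DIA3, TOP3 and TMA64, and the 1 that was not a member was SPS100. Leaving out 72 h E alone gave 44 ORFs, 42 of them members.

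**Figure D2:**
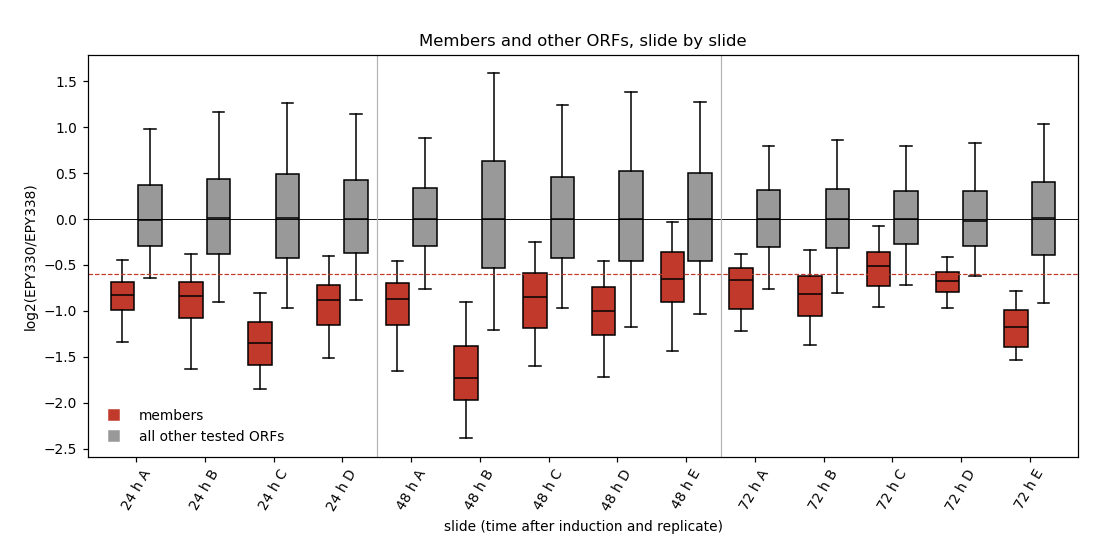
Log2(EPY330/EPY338) of the members (red) and of all other tested ORFs (grey) on each of the 14 slides. Boxes span the quartiles with the median as a line, whiskers reach the 5th and 95th percentiles, and the dashed line is the limit of -0.6; the members' box lies lowest on 24 h C, 48 h B and 72 h E.

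To read the ratios on values that the choice had not used, the rule was applied to 13 slides and the ORFs it took were read on the slide left out. It took between 44 and 120 ORFs. On the slide left out, between 88.1% and 100% of them were below 0, beside 49.2% to 52.9% of all tested ORFs. A median of 76.8% of them, with a range over slides of 20.3% to 100%, was at or below -0.6, beside 6.43% to 23.5% of all tested ORFs. The lowest share was on 72 h C. The slide left out shares its RNA pools, dyes and layout with the others, so this describes technical repeatability of the slides and not a second culture.

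The place of the members in the order of systematic ORF names was uneven. Chromosome IV held 38 of the 81 members (46.9%), against 740 of the 5652 tested ORFs (13.1%). Chromosome VII held 13 (16.0%, against 9.09%). The right arm of chromosome IV alone held 29 members, 5.82% of its 498 tested ORFs, and the median ratio of those ORFs was -0.20, -0.12 and -0.24 at the 3 time points in turn. The densest stretch of names ran from YDL211C to PEX7 and held 22 members among 172 tested ORFs. The median mean log2 ratio of all tested ORFs in that stretch was -0.44, and 104 of them were below 0 at every time point while 20 were above 0. Yeast names count outward from the centromere on each arm, so this stretch joins the outer left arm to the inner right arm, 2 segments that are neighbours in the order of names and not on the chromosome. The layout of the slides is not given in the sources used here, and its part in these ratios was not tested.

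Runs of at least 3 members with no more than 10 places between one and the next occurred 7 times and took in 31 members. By name, these were YCR103C, YCRX04W and YCRX05W; YDL211C, RRI1, YDL218W, DTD1, WHI4 and GCS1; RAD61, MLG1, FAL1 and NSI1; YDR061W, RRG1, DOA4, PPH3, AFR1, ILT1 and GRX3; TMA64, INO2, YDR124W, MRX16 and PEX7; YPQ2, TRP4 and BCP1; KEX1, SKI8 and COG1. Their roles have little in common, as the run of a signalosome subunit, a tRNA proofreading enzyme, an RNA-binding protein and a vesicle coat regulator shows. INO2 and YDR124W are direct neighbours by name, as are YDL218W and DTD1.

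To set each ORF beside its neighbours, each slide's value was reduced by the median of ORFs that stand 1 to 6, 44 to 50 or 91 to 97 names before or after it. This neighbour median was -0.24 at the median of the members (range -0.50 to 0.29), against 0.00 at the median of all tested ORFs, and the members' own mean ratio net of it had a median of -0.78. The rule then took 45 ORFs. Of the 81 members, 27 (33.3%) were among them, and 18 of the 45 were not members, and 7 of the 45 were on chromosome IV. With the 25 ORFs on either side in place of those windows, the rule took 54 ORFs, 31 of them members, with 13 on chromosome IV. Under both, 22 members qualified: MLG1, YBR064W, TMA64, TOP3, ADA2, ADH4, COG1, YCRX05W, YMR317W, HGH1, CDC14, DSF1, BCP1, JHD2, IZH1, RQT4, MNS1, TTI2, YBL086C, YNR066C, KAR3 and GAD1. Several classes dropped out altogether under both. They were RNA processing and decay, mitochondria and peroxisomes, cell polarity, cell wall and mating, and protein turnover and folding. The means given for those classes below are not net of neighbours unless so stated. At the other end, STB3 kept a mean of -0.22 net of its neighbours, DOA4 -0.36, FAL1 -0.40 and AFR1 -0.40, so about as much of their low ratio, or more, was shared with the ORFs near them in name.

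**Figure D3:**
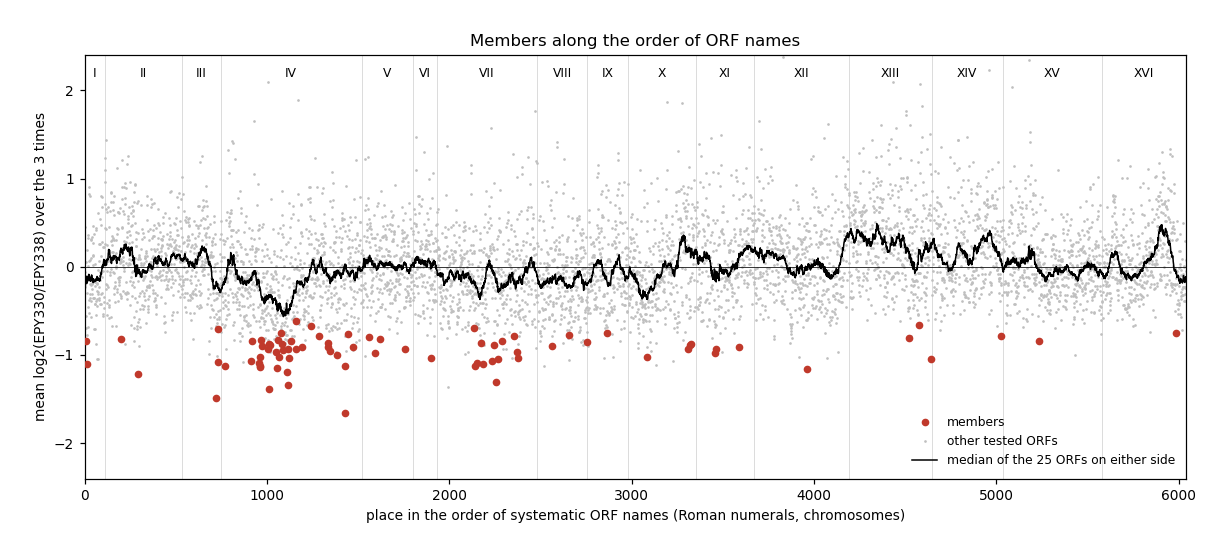
Mean log2(EPY330/EPY338) over the 3 time points against place in the order of systematic ORF names, with chromosomes in Roman numerals. Red points are the 81 members, grey points the other tested ORFs, and the black line the median of the 25 ORFs on either side; 22 members lie in the dip of that line on chromosome IV between YDL211C and PEX7.

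Among the metabolic enzymes, ADH4 was low at every time point. ADH4 is an alcohol dehydrogenase that yeast induces when zinc is scarce. Its log2 ratios were -0.94, -0.78, -1.85 and -1.02 on the slides of 24 h, -0.77, -2.22, -0.95, -0.86 and -0.20 on those of 48 h, and -1.14, -1.30, -0.68, -0.82 and -1.86 on those of 72 h. All 14 were below 0, and the lowest of each time point was on the slide named above as lowest. Of the other alcohol dehydrogenases, those compared here averaged above 0: the means over time points were 0.49 for ADH1, 0.61 for ADH2, 1.39 for ADH3 and 0.13 for ADH5, against -1.10 for ADH4. IZH1, a membrane protein of zinc homeostasis, had means of -0.98 ± 0.41, -0.83 ± 0.79 and -0.93 ± 0.27 at 24, 48 and 72 h (SD, n = 4, 5 and 5 slides). In the list of the zinc regulon, 7 of 16 measured genes were below 0 at every time point and 4 were above 0, with a median of -0.24. ZRT1, the high-affinity zinc transporter, averaged -0.84, and ZAP1, the activator of the regulon, averaged 0.54. Of all tested ORFs, 1765 of 5652 (31.2%) were below 0 at every time point, 1622 were above 0, and the median was -0.02.

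CYS3, cystathionine gamma-lyase, which makes cysteine from cystathionine, was the member with the lowest mean at 72 h. It had ratios of -0.79, -0.88, -1.12 and -0.74 at 24 h, -0.83, -1.67, -0.23, -1.87 and -0.32 at 48 h, and -1.35, -1.79, -2.01, -0.77 and -1.22 at 72 h. All slides were below 0, and at 72 h the lowest value was on slide C rather than E. MUP1, the high-affinity methionine permease, had means of -1.22 ± 0.28, -0.65 ± 0.72 and -0.78 ± 0.44, with 1 slide of 48 h above 0. Its low-affinity relative MUP3 averaged -0.37. Of the 26 measured genes of sulfur amino acid metabolism, 14 were below 0 at every time point and 4 above, with a median of -0.12, and MET10, a subunit of sulfite reductase, averaged 0.78. ERC1, a transporter named for ethionine resistance, averaged -0.90.

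Other members of metabolism act in separate pathways. MLG1, one of the lowest members, had ratios of -1.22, -0.78, -2.20 and -1.41 at 24 h, -1.52, -3.20, -1.35, -1.26 and -0.71 at 48 h, and -1.19, -1.18, -0.85, -0.76 and -1.77 at 72 h, so that every slide was at or below -0.71. URH1 cleaves uridine, TRP4 acts in tryptophan synthesis, ISC1 cleaves inositol sphingolipids and GAD1 decarboxylates glutamate, and their means were -0.9998, -0.91, -0.82 and -0.66. IMD2, an IMP dehydrogenase of guanine nucleotide synthesis, averaged -0.85, while its close relatives IMD3 and IMD4 averaged -0.34 and -0.29. Net of their neighbours by name (the first set of windows), the 3 lay closer together, at -0.49, -0.33 and -0.42. DSF1, a mannitol dehydrogenase near a telomere, had means of -1.17 ± 0.21, -0.93 ± 0.38 and -0.85 ± 0.27, against -0.46 ± 0.15, -0.44 ± 0.24 and -0.08 ± 0.11 for its near-identical copy MAN2. Spotted cDNA of near-identical genes can bind each other's transcript, so the separate values of DSF1 and MAN2, and of the IMP dehydrogenases, are uncertain. In the list of subtelomeric sugar alcohol genes, 7 of 10 were below 0 at every time point and 2 above 0, with a median of -0.47.

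The DNA and chromosome genes ran between -1.66 and -0.75. TOP3, the topoisomerase that works with the helicase Sgs1 to resolve joined DNA molecules, had ratios of -0.91, -1.24, -1.58 and -1.36 at 24 h, -0.59, -1.97, -1.38, -1.77 and -0.80 at 48 h, and -1.11, -0.78, -0.47, -0.59 and -1.55 at 72 h, all below 0. Its partners were above 0, with means of 0.40 for SGS1 and 0.20 for RMI1. PPH3, the catalytic subunit of protein phosphatase 4, which reverses the DNA damage mark on histone H2A, averaged -1.02, and its partners PSY2 and PSY4 averaged -0.13 and -0.31. Net of neighbours by name, PPH3 was at -0.59, PSY2 at -0.25 and PSY4 at -0.62. SLD2, needed to start replication, and RAD27, the flap endonuclease that trims Okazaki fragments, averaged -0.98 and -0.93. The mitotic exit phosphatase CDC14 had means of -0.71 ± 0.50, -1.35 ± 0.78 and -1.03 ± 0.34 (n = 3, 5 and 5 slides). The minus-end kinesin KAR3 averaged -0.75, its mating and spindle partner CIK1 -0.59, and its other partner VIK1 -0.04. RAD61, a cohesin regulator, averaged -0.93. TEL2 and TTI2, with TTI1 the parts of the TTT complex that stabilises large checkpoint and growth kinases, were both members, at -0.85 and -0.88, and TTI1 had means of -0.72, -0.87 and -0.23. In the lists, 2 of 48 measured replication genes and 2 of 48 repair genes were members, beside 1.43% of all tested ORFs. Below 0 at every time point were 19 and 22 of them, beside 31.2% of all tested ORFs.

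**Figure D4:**
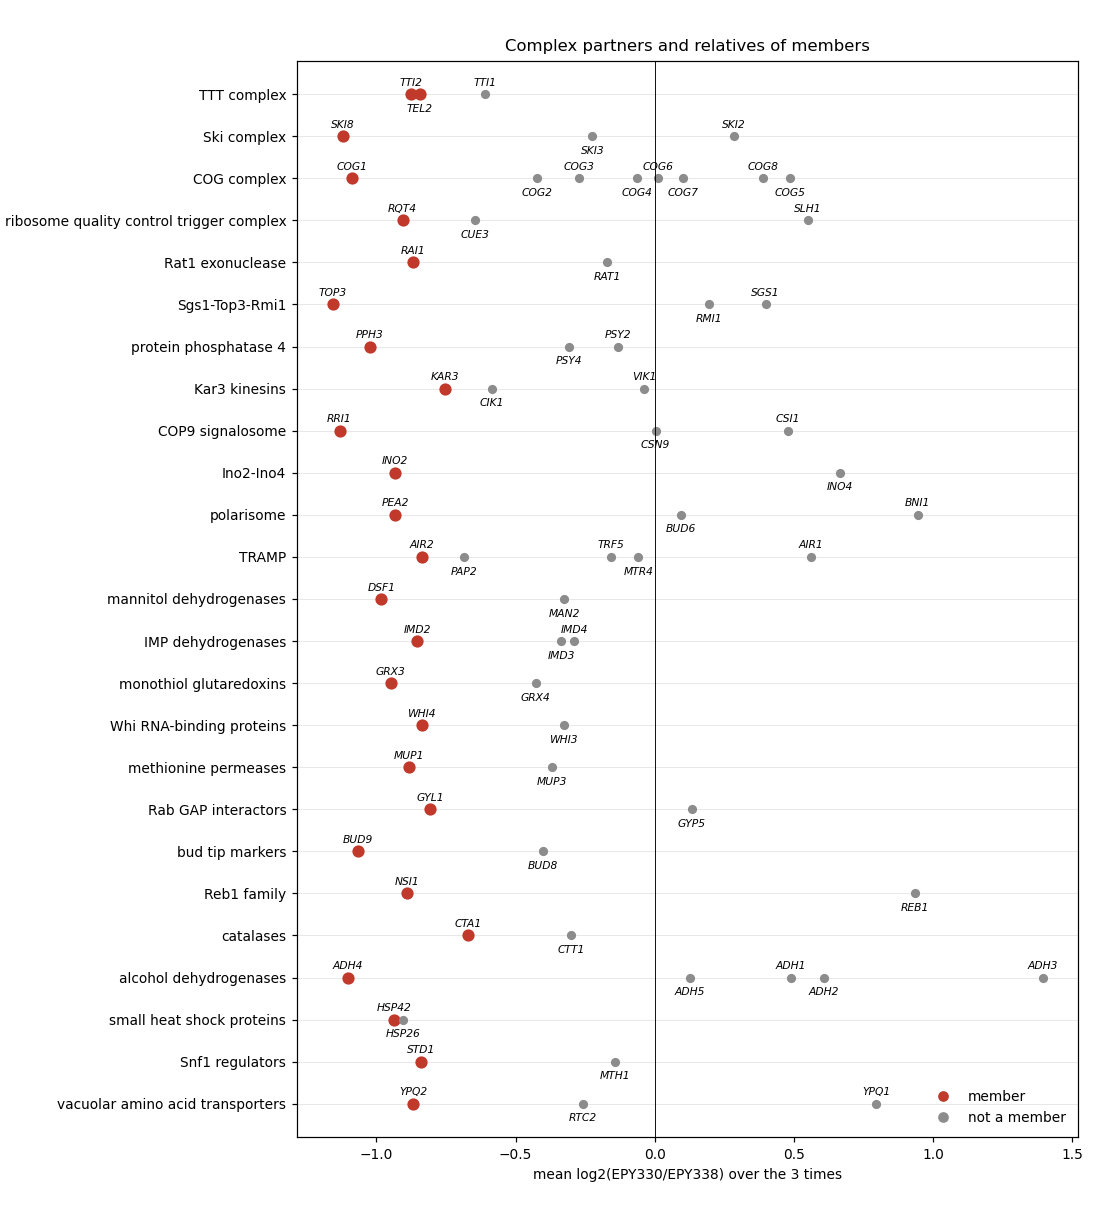
Mean log2(EPY330/EPY338) over the 3 time points of members (red) and of their complex partners or relatives (grey), one set per row. In the TTT complex the 3 genes lie between -0.88 and -0.61, while TOP3, INO2, NSI1 and ADH4 stand apart from others of their set above 0. ADH4 is set beside ADH1, ADH2, ADH3 and ADH5 by enzyme activity only. Sets were picked after the members were known, and genes lacking a time point are not drawn. The means are not net of neighbours by name.

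Members of transcription and chromatin included ADA2, part of the SAGA coactivator. Its ratios were -0.96, -1.02, -1.73 and -0.91 at 24 h, -0.87, -2.27, -1.04, -1.15 and -0.55 at 48 h, and -0.96, -1.48, -0.73, -0.61 and -1.46 at 72 h. Every slide was at or below -0.55. It was the 1 member among 16 measured SAGA genes, of which 5 were below 0 at every time point and 4 above 0. INO2 encodes one of the paired activators of phospholipid genes and had means of -1.05 ± 0.25, -1.08 ± 0.68 and -0.67 ± 0.24, whereas its partner INO4 had 0.81 ± 0.57, 0.64 ± 0.54 and 0.56 ± 0.52. In the list of phospholipid regulation, 3 of 14 measured genes were below 0 at every time point and 5 above, with a median of 0.18. The member NSI1, a factor of ribosomal DNA silencing, averaged -0.89, and its relative REB1 0.94. Net of neighbours by name (the first set of windows), INO2 was at -0.47 and INO4 at 0.64, and NSI1 was at -0.50 and REB1 at 0.86. GZF3, a GATA repressor of nitrogen genes, averaged -1.02, and 13 of 25 measured nitrogen catabolite genes were below 0 at every time point. JHD2, a histone demethylase, averaged -0.93 on 9 slides, and STD1, a regulator of the glucose-sensing kinase Snf1, averaged -0.84 against -0.14 for its relative MTH1.

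RNA processing and decay held members of several machines. SKI8 is part of the Ski complex, which feeds messenger RNA to the exosome, and averaged -1.12, against -0.22 for SKI3 and 0.28 for SKI2. The decapping partner RAI1 averaged -0.87, beside -0.17 for the exonuclease RAT1. AIR2, of the TRAMP complex of nuclear RNA surveillance, averaged -0.84, its polymerase PAP2 -0.69 and its relative AIR1 0.56. PRP38, a splicing factor, averaged -1.05 and was the 1 member among 42 measured splicing genes. The RNA-binding proteins NRP1 and WHI4 averaged -1.07 and -0.83, WHI3, a relative of WHI4, -0.33, and the ribosomal RNA helicase FAL1 -0.87. Net of neighbours by name, WHI4 was at -0.42 and WHI3 at -0.33.

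In translation, TMA64, a ribosome recycling factor, had ratios of -1.10, -0.84, -1.95 and -0.92 at 24 h, -1.47, -2.32, -0.82, -1.23 and -0.84 at 48 h, and -0.84, -1.24, -0.94, -0.86 and -1.26 at 72 h. No slide was above -0.82. The tyrosyl-tRNA synthetase TYS1 had means of -0.96 ± 0.61, -0.67 ± 0.78 and -1.27 ± 0.36, and DTD1, which clears D-amino acids from tRNA, -1.30 ± 0.34, -1.43 ± 0.26 and -0.65 ± 0.55. HGH1, a chaperone of elongation factor eEF2, averaged -1.03. RQT4, of the complex that splits collided ribosomes, averaged -0.91, its partner CUE3 -0.65 and its helicase SLH1 0.55. BCP1, a chaperone of a ribosomal protein, averaged -0.96, and the arginine methyltransferase RMT2 -0.77.

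The secretory members stand at different steps of the route. SEC24, a cargo-binding subunit of the COPII coat, averaged -0.75, and ERP2, a p24 cargo protein, -0.84. At the Golgi, COG1, of the tethering COG complex, had ratios of -1.28, -0.68, -1.62 and -0.80 at 24 h, -2.13, -2.15, -0.92, -0.51 and -0.21 at 48 h, and -0.82, -0.97, -0.78, -0.98 and -1.39 at 72 h. All were below 0, with the 48 h slides the furthest apart. The 7 other COG subunits averaged between -0.42 for COG2 and 0.49 for COG5. GCS1, a GTPase activator for Arf, TRS65, a TRAPP subunit, and GYL1, which acts with a Rab GTPase activator, averaged -0.90, -0.79 and -0.81. The list of Golgi transport held 5 members of 32 measured genes, and 17 of the 32 were below 0 at every time point. Of all tested ORFs, 1.43% were members and 31.2% were below 0 at every time point. The list was written with earlier results of these data known, so nothing is read from its counts. MNS1 trims mannose from glycoproteins in the endoplasmic reticulum, KEX1 trims the alpha-factor precursor, and they averaged -0.88 and -0.70. In the list of endosome and vacuole sorting, the ubiquitin hydrolase DOA4 was the 1 member of 22.

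The members of protein turnover and folding were led by GID10, a substrate receptor of the GID ubiquitin ligase, and RRI1, the catalytic subunit of the COP9 signalosome. RRI1 averaged -1.13, and of the other signalosome subunits CSI1 averaged 0.48 and CSN9 0.00. RRI2 was at -0.42 at 24 h on 2 slides and had no value later. The small heat shock protein HSP42 had ratios of -0.75, -0.72, -1.60 and -0.86 at 24 h, -0.75, -2.01, -0.76, -1.09 and -0.87 at 48 h, and -0.60, -0.74, -0.56, -0.61 and -1.14 at 72 h, all below 0. HSP26, the other small heat shock protein, had means of -1.35, -0.48 and -0.89 and missed the rule at 48 h. In the list of small heat shock proteins and disaggregase, HSP42 was the 1 member of 9 measured genes. Of these 9, 3 were below 0 at every time point and 2 above 0. Their means ran between -0.94 and 1.10, with a median of -0.13.

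Polarity and mating genes included BUD9, a mark of the bud site, at -1.22 ± 0.42, -1.22 ± 0.37 and -0.76 ± 0.58, and PEA2, of the polarisome, at -0.96 ± 0.31, -1.22 ± 0.42 and -0.62 ± 0.33. Of the other polarisome genes, the scaffold SPA2 had means of -0.52 at 24 h and -0.71 at 72 h (3 and 4 slides, none with a value at 48 h), BUD6 averaged 0.09 and the formin BNI1 averaged 0.94. AFR1, which shapes the mating projection, averaged -0.75, and UTR2, a cell wall transglycosylase, -0.80. Of 23 measured genes of the pheromone list, 2 were members (AFR1 and RRI1) and 13 were below 0 at every time point. No gene of the lists of kinetochore and spindle checkpoint, anaphase-promoting complex, small subunit processome or sporulation was a member. Apart from the median of phospholipid regulation, the list medians were all below 0, between -0.47 and -0.07, beside -0.02 for all tested ORFs. All lists were written with earlier results of these data known, and those with members hold ORFs chosen to be low. Nothing is therefore read from the list counts and medians. Of all tested ORFs, 1.43% were members and 31.2% were below 0 at every time point.

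All 6 members of mitochondria and peroxisomes were on chromosome IV, which held 46.9% of all members and 13.1% of all tested ORFs. They were RRG1, needed to keep the mitochondrial genome, MRX16, COQ4 of ubiquinone synthesis, ATP5 of the ATP synthase, PEX7, the import receptor for one class of peroxisomal enzymes, and CTA1, the peroxisomal catalase. RRG1 averaged -1.15 and the others between -1.03 and -0.67. Net of neighbours by name (the first set of windows), RRG1 was at -0.65, MRX16 at -0.76, COQ4 at -0.78 and CTA1 at -0.45. The cytosolic catalase CTT1 had means of -0.56, 0.08 and -0.43. Of the members of transport, redox and metals, GRX3, a monothiol glutaredoxin that takes part in iron sensing, averaged -0.95 and its relative GRX4 -0.43. CIA2, of cytosolic iron-sulfur protein assembly, averaged -0.77. YPQ2, a vacuolar amino acid transporter, averaged -0.87, while its relatives YPQ1 and RTC2 averaged 0.80 and -0.26.

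The members also differed in how their ratio ran over time. The rule used the mean of every time point and capped each at -0.6, which limits how far a member's ratio can lie above that of another time, so the values and counts between time points are a description of chosen ORFs and no independent test. The lowest mean was at 24 h for 19 members, at 48 h for 49 and at 72 h for 13. Differences between time points were fitted with limma over all 5652 tested ORFs and 14 slides, with Benjamini-Hochberg adjustment over all of them, and a call was an adjusted p below 0.05. The calls reflect the spread between repeat slides only. Between 48 and 24 h, 0 of 81 members were called (1 at an unadjusted p below 0.05), beside 0.619% of all tested ORFs with a higher ratio at 48 h and 0.372% with a lower one. Between 72 and 48 h, 12 members (14.8%) were called with a higher ratio at 72 h and 0 with a lower one, beside 13.9% and 16.3% of all tested ORFs. Without 48 h B, however, 9 were called higher and 3 lower, and the median difference of the members was 0.06, against 0.25 with all slides. Nothing is read from these counts against the shares of all ORFs, since the members were chosen on the same means. Between 72 and 24 h, 2 members (2.47%) had a higher ratio at 72 h and 0 a lower one, beside 5.17% and 9.16%.

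All slides of 72 h except E had a narrower spread over ORFs than every slide of the earlier times. The part of this in the members' ratios at 72 h was not tested, and a narrower scale of the slides and smaller differences between the strains cannot be told apart. When every slide was scaled to one SD, an alternative added after seeing the data, 9 members were called between 72 and 48 h, 5 with a higher and 4 with a lower ratio at 72 h.

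**Figure D5:**
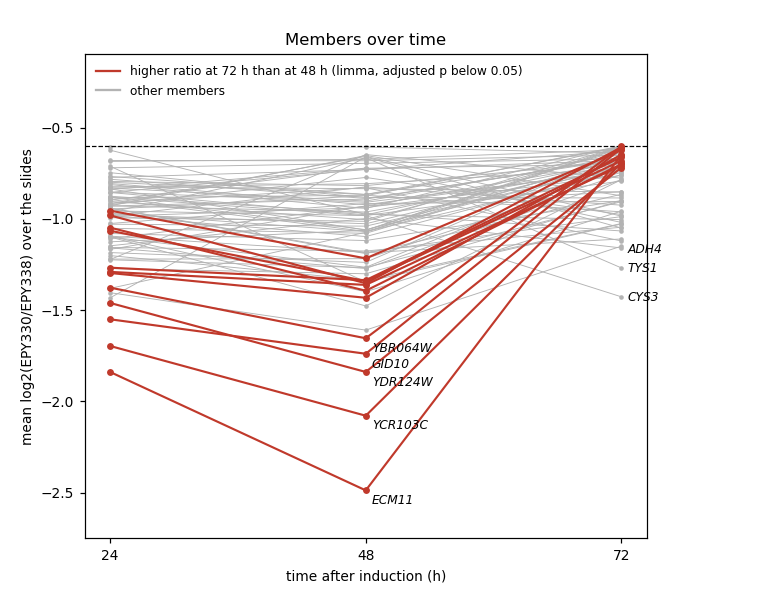
Mean log2(EPY330/EPY338) over the slides of each member at 24, 48 and 72 h (n = 4, 5 and 5 slides at most). Red lines are the 12 members with a higher ratio at 72 h than at 48 h (limma, adjusted p below 0.05), grey lines the other members, and the dashed line the limit of -0.6; ECM11 lies at -2.49 at 48 h and at -0.65 at 72 h.

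ECM11, a component of the synaptonemal complex of meiosis, had the lowest mean of all members and the largest called difference between time points. Its ratios were -1.31, -2.08, -2.44 and -1.52 at 24 h, -2.36, -2.97, -2.27 and -2.35 on the 4 slides of 48 h with a value, and -0.84, -0.21, 0.15, -0.83 and -1.54 at 72 h. The slides of 72 h and 48 h did not overlap. The ratio was 1.84 ± 0.31 (SE) higher at 72 h than at 48 h and 1.19 ± 0.31 higher at 72 h than at 24 h, and both differences were among the calls. GID10 had -1.62, -1.73, -1.52 and -1.34 at 24 h, -1.87, -1.87, -1.80, -1.70 and -1.46 at 48 h, and -0.17, -0.09, -0.57, -0.71 and -1.54 at 72 h. Slide E of 72 h overlapped the earlier slides and the others did not. Its ratio was 1.12 ± 0.22 higher at 72 h than at 48 h and 0.94 ± 0.24 higher at 72 h than at 24 h, also both called. Between 72 and 24 h, neither gene was called without 24 h B or without 72 h B. The call of ECM11 between these times was also lost without 24 h C or 72 h C, and that of GID10 without 72 h A.

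The other large differences between 72 and 48 h were in ORFs with no role assigned. YCR103C had -0.96, -2.49, -1.49 and -1.85 at 24 h, -0.79, -1.73, -2.55, -3.52 and -1.79 at 48 h, and -0.59, -0.67, -0.08, -0.69 and -1.44 at 72 h, a difference of 1.38 ± 0.40 between 72 and 48 h that was not called without 72 h C. YDR124W differed by 1.12 ± 0.28 on 3 slides of 48 h and 4 of 72 h. YBR064W differed by 1.05 ± 0.26. The 7 remaining called members were DTD1, SLD2, PRP38, YDL211C, MRX16, DIA3 and PEA2, with differences between 0.59 and 0.78.

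At the limit itself the set had no gap. The 3 members nearest the limit were TRS65, GYL1 and FAL1, whose highest time-point means were all -0.60, set by 72 h. Just outside were PDS1, AST2 and ECM33, whose highest means also round to -0.60. Within 0.05 of the limit there were 20 members inside and 51 ORFs outside.

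Of the members, 77 matched the R64 RefSeq annotation of yeast by systematic name, and 4 did not: YBR064W, YCR103C, YCRX04W and YCRX05W. The share without a match was 4.94%, against 6.53% of all tested ORFs. The annotated gene length of the 77 had a median of 1305 bases, against 1272 for the 5283 tested ORFs with a length. No member was shorter than 500 bases, whereas 9.67% of those ORFs were. Values on all 14 slides were present for 67 members and for 4929 of the 5652 tested ORFs.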

How the data were processed

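The deposited values are log2 ratios of EPY338 over EPY330, 1 per ORF and slide. The authors hybridised pooled cDNA to yeast ORF slides spotted in duplicate, read the intensities with GenePix Pro 6.1, removed aberrant and dim spots and normalised by lowess in BRB-ArrayTools 3.5.0. Intensities were not used here, so the signal behind a ratio is unknown. Lowess sets the centre of each slide near 0, so ratios are relative to the typical ORF. Values were multiplied by -1, so that a negative ratio means lower in EPY330 (direction from the sample titles), and slides were averaged per time point (24 h A to D, 48 h A to E, 72 h A to E). Slides had values for 5466 to 5940 ORFs. Tests between time points used limma 3.58.1 in R 4.3.3 (lmFit, contrasts.fit, eBayes) on all ORFs with at least 3 values at each time point; the fit was tested on simulated data. The other steps used Python 3.11.15 with pandas 2.3.3.

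The members, gene lists, roles and complex partners were chosen with earlier results of these data known. Named members are the 12 with the lowest mean, those in 1 of 18 gene lists, up to 5 with the largest called change per contrast, the 3 nearest the limit on either side, and runs of neighbours. Other genes, among them complex partners and relatives, were named after their values were seen. Promoter and protein sequences were not used here. Alternatives were the slide median, centring, other limits, complete values, both removals of the trend along ORF names, a replicate block, other limma settings and leaving out each slide.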

Additional observations from a re-analysis of the deposited data

Results flagged for a closer look

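Within a time point, 1 slide stood far from the others in 12 of 102 groups of 4 or 5 slides examined for the named members and for the members' median. Chance would flag about 1 in 20 independent groups. These groups share the same slides and are not independent, so no excess is read from the count. All 12 were on 24 h C (7) or 48 h B (5), and all were low values. On 24 h C the members' median was -1.35. There ADA2 was at -1.73, AFR1 at -1.33, HSP42 at -1.60, IZH1 at -1.59, RAD27 at -1.35 and TRS65 at -1.11. On 48 h B ECM11 was at -2.97, DTD1 at -1.88, GCS1 at -2.22, HSP42 at -2.01 and FAL1 at -1.45.

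The largest differences between time points past limma's threshold (adjusted p below 0.05), up to 5 per contrast, were in 5 named members. These were themselves chosen on the time-point means, and the other called members are named above. Between 72 and 48 h the ratio was higher at 72 h by 1.84 for ECM11, 1.38 for YCR103C, 1.12 for GID10, 1.12 for YDR124W and 1.05 for YBR064W. Between 72 and 24 h it was higher at 72 h by 1.19 for ECM11 and 0.94 for GID10.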

How the results depend on the processing

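The number of members, 81, was 45 after removal of the trend along ORF names, 126 with slides scaled to one SD, 30 without 24 h C, 48 h B and 72 h E together, and 191, 19 and 3 at limits of -0.5, -0.8 and -1. Leaving out 1 slide gave 44 to 120, and only 72 h replicate E (44) moved it by over 1.5 times. Under the slide median, centring, complete values and the 25-neighbour trend it was 54 to 75. Members changed between 72 and 48 h numbered 12. The number was 3 at an adjusted p below 0.01, 19 with the trend removed (18 higher at 72 h, 1 lower), 20 without the 3 slides (17 higher, 3 lower) and 6 to 18 with 1 slide left out, the 6 without 72 h A or 72 h C. Without 48 h B the 12 were 9 higher and 3 lower, the 1 slide whose absence gave lower calls. Between 72 and 24 h, 2 members became 1 with complete values, 0 at an adjusted p below 0.01, 7 with the slides of those times alone, 4 with the trend removed, 8 without the 3 slides, and 0 to 7 with 1 slide left out. That number was 0 without 24 h B or 72 h B, 1 without 24 h C, 72 h A or 72 h C, 4 without 48 h B and 7 without 72 h E. Between 48 and 24 h, 0 members were called under every alternative run.

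The sample titles give each slide a letter, and what the letters stand for is not stated. Over the 13 pairs of same-letter slides of different times, deviations from the time means correlated between -0.53 and 0.65, and 6 pairs, all those of letters A and D, were over 0.1. As the other 7 were not, the letters were not treated as pairs. With the replicate block, 0, 11 and 4 members were called for 48 minus 24 h, 72 minus 48 h and 72 minus 24 h. The mean ratios of the 34 named members did not change sign under 612 alternative values. These reuse the slides that chose the members, so an unchanged sign is no independent support. Of these values, 7 moved by more than 1 SD between slides, all with the trend removed (YDR124W, RRG1, AFR1, DOA4, INO2, PPH3 and FAL1). The causes were not tested. Scaling to one SD and leaving out the 3 slides together were added after seeing the data. Precision is limited by 14 slides from 1 pair of pools per time point.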
